A study of Canis lupus familiaris with 33 samples.

Results

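The genes of prostaglandin synthesis and the prostaglandin E2 receptors were examined in naturally occurring invasive urothelial carcinoma (iUC) of the dog bladder. The set was chosen by symbol: the cyclooxygenases PTGS1 and PTGS2, the synthases PTGES, PTGES2 and PTGIS, the degrading enzyme HPGD, and the receptors PTGER2, PTGER3 and PTGER4. Of these 9 genes, 8 had a row among the 25096 genes of the TMM-normalized table, and all 8 were among the 24471 genes tested. PTGER3 was not analysed here.

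Cyclooxygenases turn arachidonic acid, freed from membranes by phospholipases, into the unstable intermediate prostaglandin H2. Terminal synthases then make prostaglandin E2 (PTGES, PTGES2), prostacyclin (PTGIS) or other prostanoids, HPGD inactivates prostaglandin E2 inside cells, and PTGER2 and PTGER4 encode the receptors that answer prostaglandin E2 by raising cAMP. PTGS1 is the cyclooxygenase present in many resting tissues and PTGS2 the one induced by growth factors and inflammation. Cyclooxygenase inhibitors are in use against iUC in dogs.

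RNA was sequenced from 29 iUC tumors and from 4 samples of normal bladder mucosa. The tumors were high-grade, came from different dogs before any treatment and were collected by cystoscopy according to the labels, and the authors selected tumors of high epithelial cellularity. The normals were mucosa that the authors freed by dissection from the bladders of dogs without bladder disease, and the labels give no age, sex or breed for any dog. Every value below is on a log2 scale with the gene's median over the 33 samples set to 0, so it shows how samples differ in a gene, and levels are not compared between genes. A gene was called when the adjusted p of limma was at most 0.05 and the change at least 2-fold.

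The normals, labelled as urothelial cells, carried markers of the wall beneath the urothelium. All 5 smooth muscle markers tested were lower in tumors, led by ACTG2 (log2 fold change -7.05) and TPM2 (-6.28), and the mean of these markers ran from 5.00 to 6.83 in the normals against -1.43 to 3.97 in the tumors. Of 8 fibroblast markers 7 were lower, led by DCN (-3.87) and COL1A1 (-3.04), with list means of 2.10 to 2.78 in the normals and -2.37 to 2.28 in the tumors. All 4 nerve and Schwann cell markers were lower, led by CDH19 (-7.46) and NCAM1 (-6.51), as were 2 of 4 mast cell markers, CPA3 (-3.08) and MS4A2 (-3.07). The share of all genes tested that were called lower was 45.8%, close to that of the mast cell markers. Urothelial markers went mainly the other way, with 5 of 9 higher, led by ELF3 (2.27), and 1 lower, KRT20 (-3.75). Of all genes tested, 10.7% were called higher. No marker on any list was at its lowest shared value in all normals or in all tumors. In bulk tissue, fewer cells of a type and less RNA per cell cannot be told apart. The part of these cell types in the results on prostaglandin genes was not tested between tumors and normals.

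The libraries also differed in how many genes they detected. Between 755 and 1019 genes stood at their lowest shared value in a normal, against 3699 to 8175 in a tumor. Olfactory receptor genes, which bladder is not known to use, were above that value for all receptor genes in every normal and for 7.64 to 92.4% of them in the tumors. Tumors 14, 17 and 25 stood apart at 77.1% and above. None of the 8 prostaglandin genes was at its lowest shared value in any sample.

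The synthesis enzymes moved in both directions, and both receptors measured were lower in tumors. PTGS2 and PTGES were called higher in tumors, PTGS1, PTGIS, PTGER2 and PTGER4 were called lower, and PTGES2 and HPGD were not called. That is 2 of 8 higher, where 10.7% of all genes tested were called higher, and 4 of 8 lower, where 45.8% were called lower. The median log2 fold change of the 8 genes was -0.38, against -0.84 for all genes tested and -0.01 for genes whose median lay above the lowest value. Each of the 8 genes has its median above the lowest value.

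**Figure D1:**
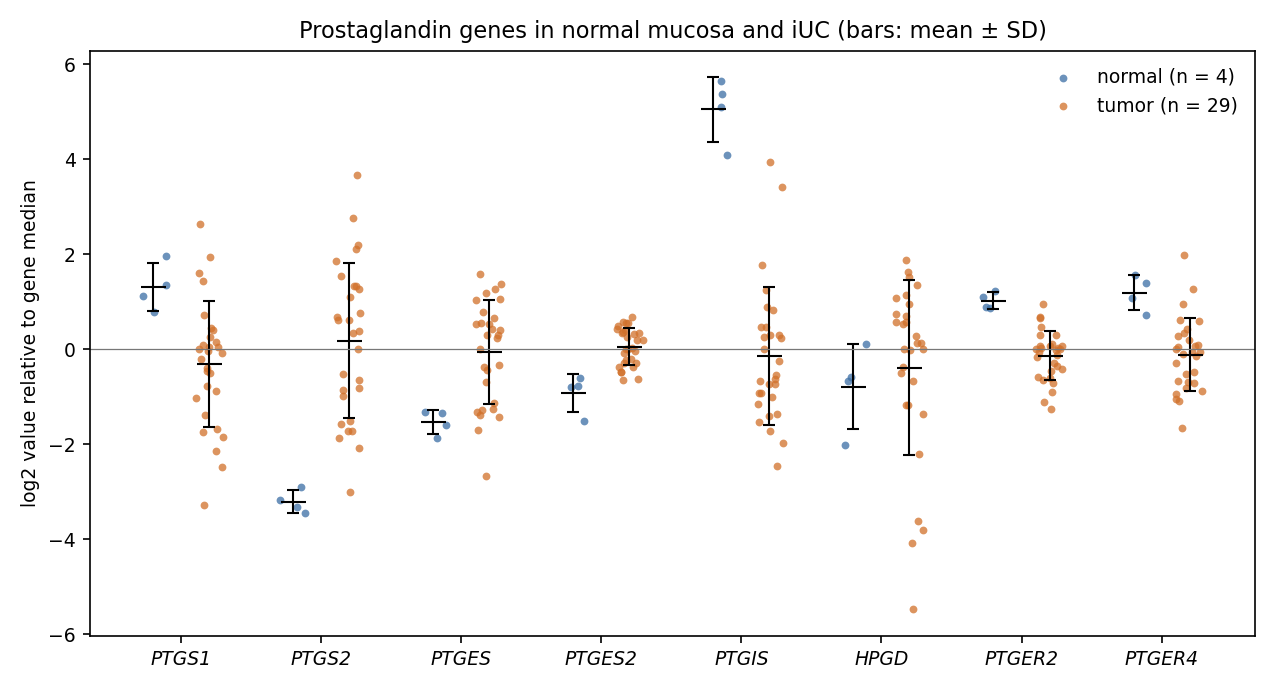
Log2 value relative to the gene median (vertical axis) of 8 prostaglandin genes in 4 normals (blue) and 29 tumors (orange), 1 point a sample, with black bars for the mean ± SD. All 4 normals lie between -3.45 and -2.89 for PTGS2 and between 4.09 and 5.64 for PTGIS, where no tumor is above 3.95, while the HPGD tumors spread from -5.47 to 1.89.

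PTGS2 (ENSCAFG00000013762), the inducible cyclooxygenase, showed the largest rise of the set. Its values were -2.89, -3.31, -3.45 and -3.18 in normals 1 to 4 and ran from -3.00 in tumor 9 through a median of 0.38 to 3.66 in tumor 15. In 28 of 29 tumors it was above every normal, and only tumor 9 lay within their range. The normals were alike, at -3.21 ± 0.24 (SD, n = 4), and the tumors were not, at 0.18 ± 1.63 (SD, n = 29). The log2 fold change was 3.39 (SE 0.80, 95% interval 1.77 to 5.01, adjusted p = 3.45e-04 by limma), a 10.5-fold rise that exceeded the change of 99.8% of the genes tested. Among the tumors, 10 were above 1 and 4 above 2, while 7 were below -1.

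PTGS1 (ENSCAFG00000020263), the constitutive cyclooxygenase, went the other way. It measured 0.79, 1.36, 1.12 and 1.97 in the normals and from -3.27 in tumor 1 through -0.07 to 2.64 in tumor 25 in the tumors. Below every normal were 25 of 29 tumors, 3 lay within their range and tumor 25 above it. The means were 1.31 ± 0.50 (SD, n = 4) and -0.31 ± 1.33 (SD, n = 29), and the log2 fold change was -1.62 (SE 0.66, 95% interval -2.95 to -0.29, adjusted p = 0.0274 by limma). It was no longer called without normal 2 (-1.61, adjusted p = 0.0608) and without normal 4 (-1.40, adjusted p = 0.103).

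Set against each other within a sample, the cyclooxygenases separated the groups. PTGS2 minus PTGS1, which does not depend on how a sample is scaled, was -3.68, -4.67, -4.58 and -5.15 in the normals and ran from -3.01 in tumor 16 through 0.61 to 4.35 in tumor 17. Every one of the 29 tumors was above every normal, with a mean difference of 5.01 between the groups on the log2 scale. This difference adds the fall of PTGS1 to the rise of PTGS2, which alone was above every normal in 28 tumors. Such a separation was therefore likely beforehand. For single genes, 7.63% of those tested had every tumor above every normal. The share for differences of 2 genes was not computed. Tumor 9, the lowest for PTGS2, also had a low PTGS1 (-1.38), and tumor 25, the highest for PTGS1, had a PTGS2 of 1.87.

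PTGES (ENSCAFG00000030838) encodes the inducible microsomal synthase that is commonly coupled to PTGS2. Its values were -1.32, -1.86, -1.35 and -1.60 in the normals, and in the tumors they ran from -2.67 in tumor 29 through 0.31 to 1.59 in tumor 22. Above every normal were 25 of 29 tumors, 3 overlapped the normals and tumor 29 lay below them. The mean rose from -1.53 ± 0.25 (SD, n = 4) to -0.06 ± 1.09 (SD, n = 29), a log2 fold change of 1.47 (SE 0.54, 95% interval 0.38 to 2.57, adjusted p = 0.0151 by limma). This call was lost in the DESeq-normalized table (1.18, adjusted p = 0.0541) and without normal 2 (1.37, adjusted p = 0.0513). Below -1 were 8 tumors and above 1 were 6.

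PTGES2 (ENSCAFG00000020089), a second microsomal synthase that is not induced with PTGS2, varied least. It was -0.60, -0.78, -0.79 and -1.51 in the normals and between -0.65 in tumor 10 and 0.69 in tumor 29 in the tumors, with a median of 0.02. In 27 of 29 tumors it was above every normal. The log2 fold change of 0.98 (SE 0.22, adjusted p = 1.58e-04 by limma) amounts to 1.97-fold, just short of the 2-fold threshold, which it crossed when normal 1, 2 or 3 was left out (1.02 to 1.08) and when tumor 2 or 10 was (1.00 each). Its SD over the tumors, 0.39, was larger than that of only 23.7% of the genes tested.

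PTGIS (ENSCAFG00000011426), prostacyclin synthase, is typical of vessel walls and smooth muscle. The normals measured 4.09, 5.10, 5.37 and 5.64, and the tumors from -2.45 in tumor 10 through -0.55 to 3.95 in tumor 29. All 29 tumors lay below every normal, which 28.5% of the genes tested did. The means of 5.05 ± 0.68 (SD, n = 4) and -0.13 ± 1.45 (SD, n = 29) gave a log2 fold change of -5.18 (SE 0.72, 95% interval -6.65 to -3.72, adjusted p = 1.05e-07 by limma), 36.3-fold lower. Tumors 15 (3.42) and 29 (3.95) came nearest to the normals, and the next highest, tumor 23, was at 1.78. The smooth muscle markers given above separated the groups in the same way, and their part in the change of PTGIS was not tested.

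HPGD (ENSCAFG00000007891), the dehydrogenase that starts the breakdown of prostaglandin E2, did not differ between the groups beyond its spread, which was the widest of the set. It was -0.66, -0.58, 0.12 and -2.02 in the normals, and the tumors ran from -5.47 in tumor 4 through 0.14 to 1.89 in tumor 28. The log2 fold change of 0.40 had a 95% interval of -1.47 to 2.27 (adjusted p = 0.704 by limma), so neither a fall nor a rise of more than 2-fold is left out by these samples. Of the tumors 15 lay above every normal, 9 within their range and 5 below it. Those 5 were tumors 4 (-5.47), 21 (-4.07), 18 (-3.80), 22 (-3.61) and 20 (-2.20), all the tumors under -2. With an SD of 1.85, HPGD varied more over the tumors than 97.2% of the genes tested. PTGS2 in the same 5 tumors was 0.34, 1.26, 1.55, 0.76 and -0.82, in that order, and PTGES was 0.31, 1.26, -1.38, 1.59 and -0.38.

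PTGS2 and PTGES were also set against HPGD as log2 differences within a sample, which do not measure the balance of synthesis and breakdown. Over the tumors the SDs were 2.73 for PTGS2 minus HPGD and 2.38 for PTGES minus HPGD, against 1.85 for HPGD. The genes of these differences had a Pearson's r of -0.226 and -0.266, in that order. With a negative r, a difference must have a larger SD than either gene. PTGS2 minus HPGD was -2.23, -2.73, -3.57 and -1.16 in the normals and ran from -4.52 in tumor 9 through 0.65 to 5.81 in tumor 4, with 20 of 29 tumors above every normal. PTGES minus HPGD was -0.66, -1.27, -1.46 and 0.42 in the normals and from -3.62 in tumor 29 through 0.31 to 5.78 in tumor 4, with 12 of 29 tumors above every normal. The groups overlapped in both differences, unlike in PTGS2 minus PTGS1.

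PTGER2 (ENSCAFG00000014701) was 1.11, 0.89, 1.23 and 0.88 in the normals and ran from -1.26 in tumor 18 through -0.01 to 0.95 in tumor 25, with 28 of 29 tumors below every normal. Its mean fell from 1.03 ± 0.17 (SD, n = 4) to -0.14 ± 0.52 (SD, n = 29), a log2 fold change of -1.16 (SE 0.27, 95% interval -1.70 to -0.62, adjusted p = 2.45e-04 by limma). PTGER4 (ENSCAFG00000018619) was 1.57, 1.08, 1.40 and 0.72 in the normals and from -1.65 in tumor 24 through -0.06 to 1.99 in tumor 28. Here 26 of 29 tumors were below every normal, and tumor 28 was above them all. The log2 fold change of PTGER4 was -1.30 (SE 0.39, 95% interval -2.09 to -0.52, adjusted p = 0.00333 by limma). Fibroblast and macrophage markers had medians of -2.61 and 0.57 in the same comparison, and their part was not tested. Among all genes tested these changes are at the percentiles 45.9 and 44.2, and the median of genes whose median lay above the lowest value was -0.01. PTGER4 minus PTGER2 differed by only -0.14 between the group means, with 8 of 29 tumors above every normal.

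**Figure D2:**
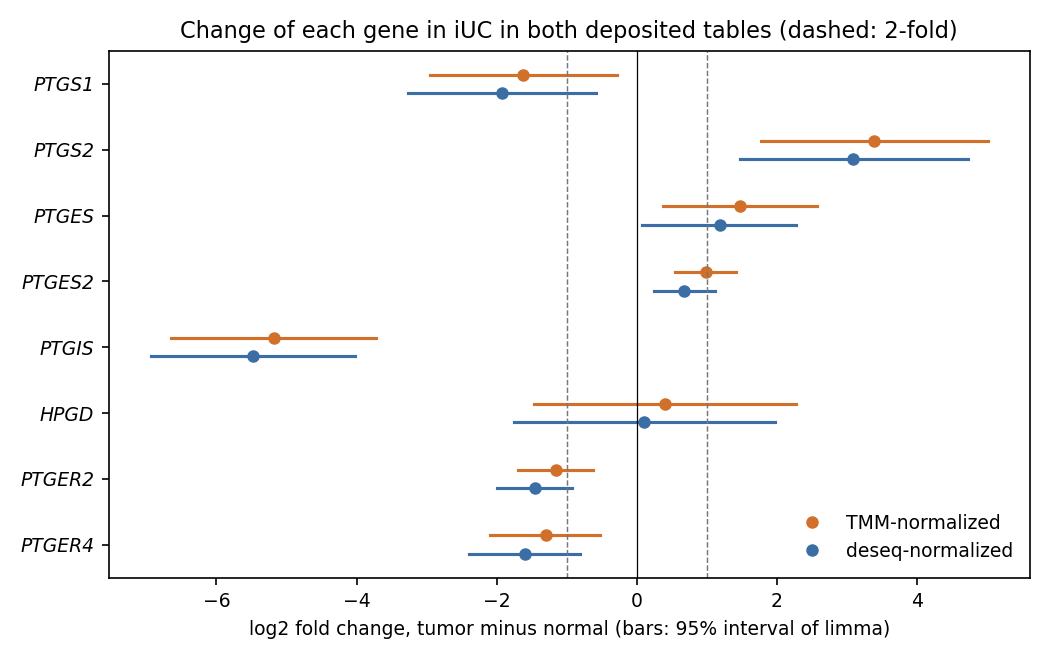
Log2 fold change of each gene, tumors minus normals (horizontal axis), with its 95% interval, in the TMM-normalized (orange) and the DESeq-normalized table (blue), and dashed lines at a 2-fold change. Each gene has the same sign in both tables and lies lower in the DESeq-normalized one, with PTGES moving from 1.47 to 1.18 and HPGD from 0.40 to 0.10.

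Beyond these genes, 25 of 40 listed genes of arachidonate metabolism were tested. Of these 4 were called higher, 10 lower and 11 not called, where 10.7% of all genes tested were called higher and 45.8% lower, and the median log2 fold change of -0.84 equalled that of all genes tested. The step before the cyclooxygenases held the strongest rise: PLA2G4A, the cytosolic phospholipase A2 that releases arachidonic acid, was -2.59, -2.14, -2.93 and -2.92 in the normals and between -1.64 and 1.55 in the tumors, all of them above every normal. Its log2 fold change was 2.73 (SE 0.36, adjusted p = 3.55e-08 by limma). Of the 25 genes 3 had every tumor above every normal, where 7.63% of all genes tested did. The secreted phospholipase PLA2G10 fell by 2.68 on the log2 scale (adjusted p = 1.25e-06), and PLA2G5 (-1.21, adjusted p = 0.195) and PLA2G6 (-0.74, adjusted p = 0.00746) were not called.

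Among the other terminal synthases, PTGDS, which makes prostaglandin D2, fell from 5.36 ± 1.09 (SD, n = 4) by 5.06 on the log2 scale (adjusted p = 2.43e-06 by limma). FAM213B, a prostaglandin F2 alpha synthase, fell by 1.53 (adjusted p = 0.0373), and the thromboxane synthase TBXAS1 was at -0.10 (adjusted p = 0.884). Of the genes of transport and breakdown, PTGR1, a reductase that follows HPGD, rose by 2.25 (adjusted p = 3.06e-05), and the exporter ABCC4 rose by 1.54 (adjusted p = 0.00889). For PTGR1 every tumor was above every normal, as for 7.63% of all genes tested. The importer SLCO2A1 was at -0.11 (adjusted p = 0.872).

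Of 6 other prostanoid receptor genes, 3 were lower in tumors, a share near the 45.8% of all genes tested, and none was called higher. PTGDR for prostaglandin D2 fell by 1.74 (adjusted p = 0.00275 by limma), PTGFR for prostaglandin F2 alpha by 1.54 (adjusted p = 2.58e-05) and the thromboxane receptor TBXA2R by 1.49 (adjusted p = 0.0222). The prostacyclin receptor PTGIR (-0.84, adjusted p = 0.269), the regulator PTGFRN (0.12, adjusted p = 0.732) and PTGER1 (1.17, adjusted p = 0.0625) were not called. PTGER1 was at its lowest shared value in 3 of the 4 normals, so its normal level rests on normal 2 (0.56).

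In the lipoxygenase branch, which competes for the same substrate, 4 of 9 genes were lower and 1 higher, close to the 45.8% and 10.7% of all genes tested. ALOX12B, ALOX15B, ALOX15 and the leukotriene receptor CYSLTR2 had log2 fold changes of -4.35, -3.60, -1.51 and -1.47, while LTA4H, which makes leukotriene B4, rose by 1.15 (adjusted p = 2.54e-06 by limma). The tumor median of ALOX12B and of PLA2G10 was 0.00, which was also their lowest tumor value.

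**Figure D3:**
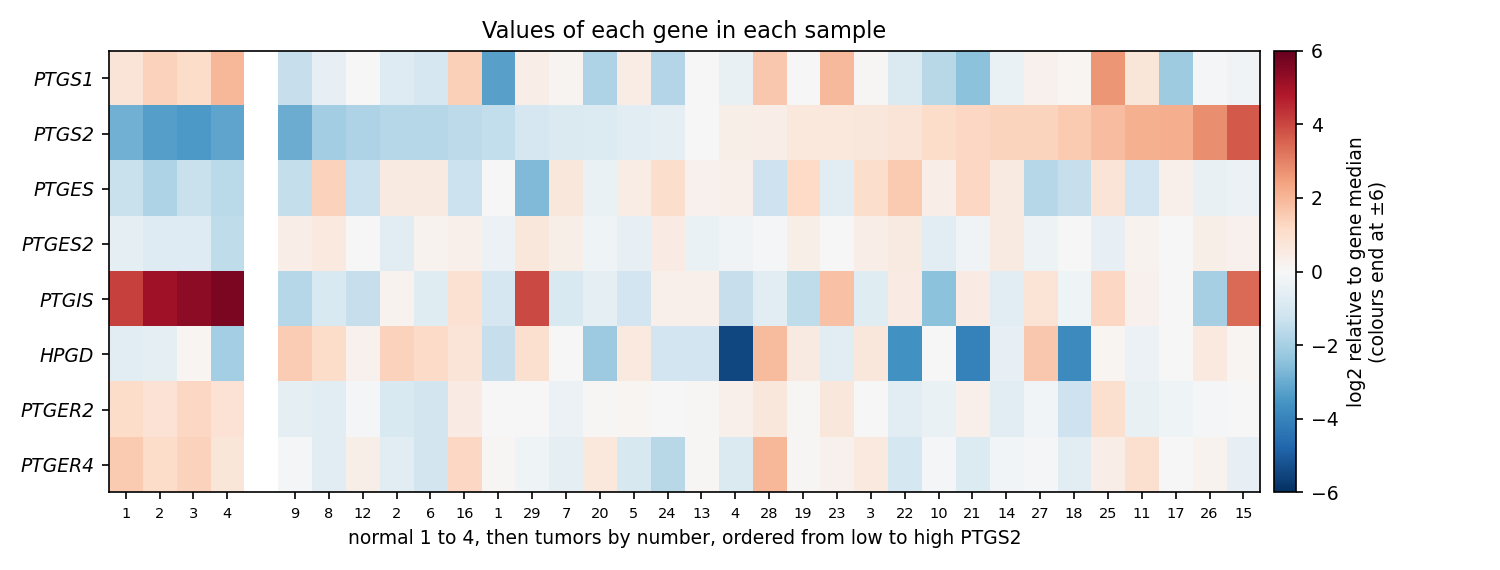
Log2 value relative to the gene median, as colour, of the 8 prostaglandin genes (rows) in normals 1 to 4 and in the 29 tumors ordered from low to high PTGS2 (columns). PTGES, HPGD and the receptors show no matching order along the tumors, and the darkest HPGD fields are tumors 4, 21, 18 and 22.

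The tumors differed widely in HPGD, PTGS2 and PTGIS and little in PTGES2, and the genes did not vary as a block. Over the 29 tumors, none of the 28 pairs passed the Benjamini-Hochberg adjustment over the pairs, by Pearson's r or by Spearman's rho, and 4 had a permutation p under 0.05 before it. PTGS2 had a Pearson's r of 0.0700 with PTGES (permutation p = 0.718) and of 0.182 with PTGS1 (permutation p = 0.346), with rho of 0.0291 (permutation p = 0.881) and 0.157 (permutation p = 0.414). The largest r were 0.461 between PTGER2 and PTGER4 (permutation p = 0.0119, adjusted p = 0.138; rho 0.430, permutation p = 0.0211) and -0.457 between PTGES and PTGER4 (permutation p = 0.0123, adjusted p = 0.138; rho -0.424, permutation p = 0.0229). Without the 2 tumors farthest from the median of the second gene they were 0.446 and -0.377. After regression on the percentage of olfactory receptor genes above their lowest value, PTGES and PTGER4 had r = -0.569 (permutation, adjusted p = 0.0311) and were the only pair to pass.

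Several of the genes instead followed markers of a cell type. Each gene was set against the mean z of 10 marker lists and 4 program lists over the tumors, 112 relations in all, of which 9 passed the adjustment over them and 25 had a permutation p under 0.05 before it. The lists overlap in what they follow: the fibroblast score had r = 0.627 with the mast cell score and 0.612 with the smooth muscle score, and the inflammatory cytokine score had 0.895 with cAMP-induced genes and 0.836 with the neutrophil score, so these are close to a single score.

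PTGIS followed smooth muscle, with a Pearson's r of 0.854 (permutation p = 1e-05, the smallest 100000 resamples can give, adjusted p = 0.00112) and Spearman's rho = 0.707 (4e-05 by permutation, adjusted p = 0.00448). Leaving out the 2 tumors with scores farthest from the median, which include the high end of PTGIS, r was 0.661. PTGIS also passed with the nerve and Schwann cell (0.605), fibroblast (0.558) and mast cell (0.534) scores. The nerve relation did not pass by rank (rho = 0.476, permutation, adjusted p = 0.0730) or without the 2 farthest tumors (0.453), nor did that with mast cells without them (0.483). The endothelial score passed by rank (rho = 0.601, permutation p = 7.3e-04, adjusted p = 0.0136) and not by r (0.412, permutation p = 0.0270, adjusted p = 0.144). Of 10963 genes compared, those most like PTGIS were the smooth muscle genes ACTG2 (r = 0.832), MYH11 (0.825) and TPM2 (0.823). All of them are also on the smooth muscle list, of which 5 genes were scored.

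PTGS1 followed the fibroblast score, with r = 0.746 (permutation p = 2e-05, adjusted p = 0.00112), rho = 0.641 (permutation p = 2e-04, adjusted p = 0.00560) and r = 0.623 without the 2 farthest tumors. With the mast cell score its r was 0.621 (permutation p = 3.5e-04, adjusted p = 0.00784; rho 0.660, permutation p = 1.3e-04) and 0.687 without the 2 farthest. The endothelial score did not pass over all tumors (r = 0.236, permutation p = 0.220, adjusted p = 0.465). It passed without the 2 farthest (0.609). The genes most like PTGS1 were LUM (r = 0.895), a fibroblast matrix proteoglycan that is also on the fibroblast list, PDPN (0.888), and MMP2 (0.884), a gelatinase.

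PTGER2 followed the fibroblast score too, with r = 0.652 (permutation p = 2e-04, adjusted p = 0.00560), rho = 0.643 (permutation p = 2.7e-04, adjusted p = 0.00605) and r = 0.676 without the 2 farthest tumors. By rank PTGER2 also passed with the endothelial (rho = 0.525, permutation p = 0.00364, adjusted p = 0.0442) and smooth muscle scores (rho = 0.523, permutation p = 0.00434, adjusted p = 0.0442), which had r = 0.497 and 0.404 and did not pass by it (adjusted p = 0.0553 and 0.155 by permutation). Its nearest genes were IL34 (r = 0.776), a ligand of the macrophage receptor CSF1R, PRR16 (0.773) and TMEM176B (0.767). PTGER4 passed with the macrophage score (r = 0.641, permutation p = 1.9e-04, adjusted p = 0.00560), but not by rank (rho = 0.451, permutation p = 0.0152, adjusted p = 0.0813), and its r was 0.401 without the 2 farthest tumors, so that relation rests on them. PTGER4 had a negative r with proliferation (-0.589, permutation p = 0.00101, adjusted p = 0.0162), which by rho (-0.416, permutation p = 0.0261, adjusted p = 0.126) did not pass. With inflammatory cytokines the r of PTGER4 was 0.503 (permutation p = 0.00551, adjusted p = 0.0553), close to that of PTGS2 given further on, and it passed by rank (rho = 0.516, permutation p = 0.00475, adjusted p = 0.0443). Its r with T cells (0.480, adjusted p = 0.0726 by permutation) and neutrophils (0.474, adjusted p = 0.0735) did not pass. The genes most like PTGER4 were SLC16A7 (r = 0.757), SLC2A5 (0.735) and the endocytic adaptor DAB2 (0.725).

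**Figure D4:**
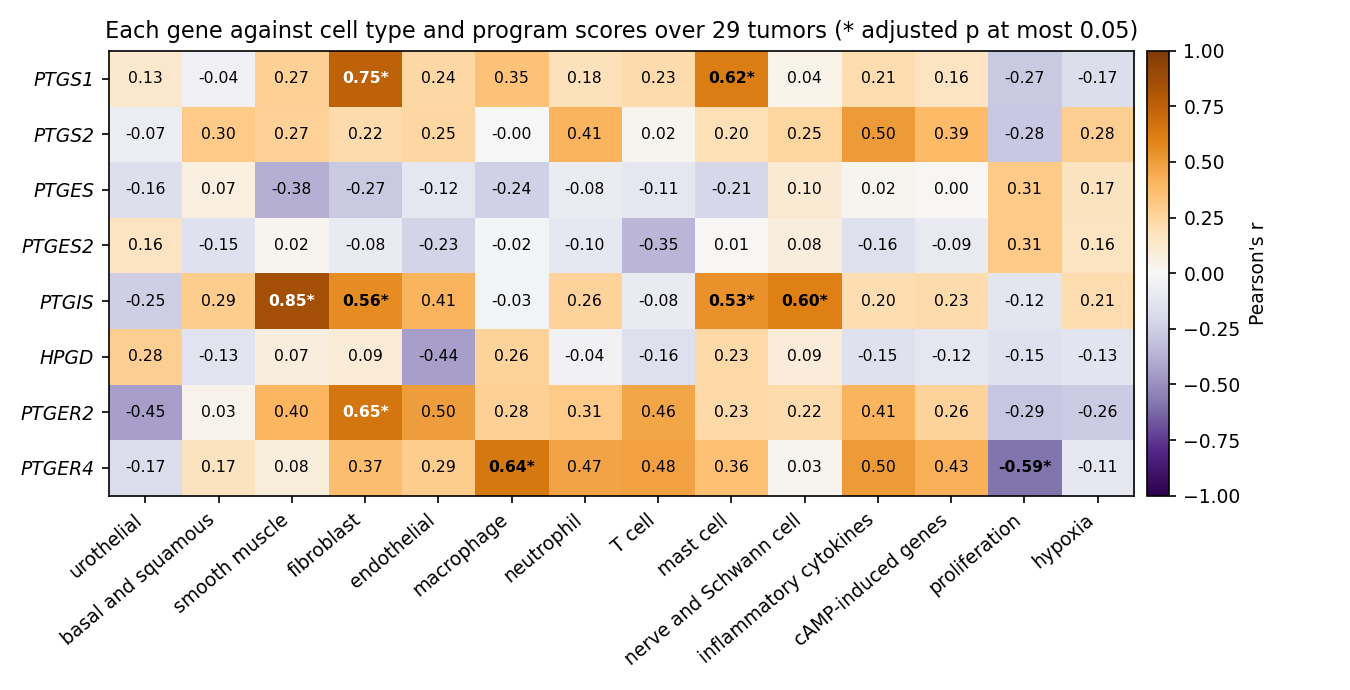
Pearson's r over 29 tumors of each prostaglandin gene (rows) with the mean z of 14 marker and program lists (columns), as colour and number, with asterisks where the adjusted permutation p was at most 0.05. The 9 marked fields belong to PTGS1, PTGIS, PTGER2 and PTGER4, with the highest, 0.85, for PTGIS and smooth muscle, and PTGS2, PTGES, PTGES2 and HPGD have none.

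PTGS2 passed with no list by Pearson's r over all 29 tumors. Its highest was 0.500 with inflammatory cytokines (permutation p = 0.00554, adjusted p = 0.0553), which passed by rank (rho = 0.535, permutation p = 0.00319, adjusted p = 0.0442) and was 0.607 without the 2 farthest tumors. The score of cAMP-induced genes had r = 0.390 (permutation p = 0.0366, adjusted p = 0.178) and passed by rho (0.523, permutation p = 0.00409, adjusted p = 0.0442). With the macrophage score the r of PTGS2 was near 0, and with the neutrophil score it was 0.412 (permutation p = 0.0270, adjusted p = 0.144; rho 0.475, permutation p = 0.00991, adjusted p = 0.0730). Leaving out the 2 farthest tumors gave 0.591 for cAMP-induced genes, 0.542 for neutrophils and 0.518 for nerve and Schwann cells. These relations and that with cytokines passed in that setting. Over all tumors the nerve and Schwann cell relation had only r = 0.250 (permutation p = 0.190, adjusted p = 0.437) and rho = 0.251 (permutation p = 0.189). Its r was 0.141 without tumors 14, 17 and 25. The genes most like PTGS2 were CDH6 (r = 0.663), the cytokine IL6 (0.660) and the urokinase receptor PLAUR (0.657). CDH6 was lower in tumors, by a log2 fold change of -2.04 (adjusted p = 0.0228 by limma), PLAUR was higher, by a log2 fold change of 1.81 (adjusted p = 0.00254 by limma), and IL6 was at -0.83 (adjusted p = 0.381).

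HPGD, PTGES and PTGES2 passed with no list. HPGD stood nearest to RAB27B, a small GTPase of vesicle secretion that is abundant in urothelium, with r = 0.865 over the 29 tumors and of 0.794 without the 2 tumors farthest from the median of RAB27B. In the 5 tumors lowest for HPGD, in the order given above, RAB27B was -4.50, -1.80, -0.95, -0.74 and -0.85. The next genes were SPATA1 (0.737) and ECHDC3 (0.708). PTGES was most like NOC4L (0.683), LRRC20 (0.652) and RASD1 (0.636), and PTGES2 most like NHP2 (0.690), PMPCA (0.664) and MRPL50 (0.655), of which NHP2 serves ribosome and telomerase RNAs and PMPCA and MRPL50 are mitochondrial.

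Next to each other on the chromosome, some of the genes had neighbours of the same pathway. In the RefSeq gene order of the dog (assembly UU_Cfam_GSD_1.0, used for order only), PTGS2 lies beside PLA2G4A and PTGER2 beside PTGDR. PTGS2 and PLA2G4A, both higher in tumors, had r = 0.606 over the tumors (permutation p = 4.4e-04, adjusted p = 0.00205 over 14 neighbours) and rho = 0.669 (permutation p = 1.3e-04), with 0.684 without the 2 farthest tumors, a higher r than PTGS2 had with 99.9% of 10962 genes. PDC, on the other side of PTGS2, had r = 0.496 (permutation p = 0.00644, adjusted p = 0.0171; rho 0.441, permutation p = 0.0179) although it was lower in tumors, with a log2 fold change of -3.54. PDC was at its lowest shared value of -3.17 in tumors 1, 5, 7, 9, 16, 21, 22 and 24. The part of detection in its r and its change was not tested. PTGER2 and PTGDR, both lower in tumors, had r = 0.407 (permutation p = 0.0285, adjusted p = 0.0570) that did not pass and rho = 0.514 (permutation p = 0.00500, adjusted p = 0.0140) that did, and r was 0.624 without the 2 farthest tumors. PTGER4 and its neighbour DAB2, named above, had a permutation p of 3e-05 (adjusted p = 4.2e-04; rho 0.626, permutation p = 4.8e-04), and 0.567 without the 2 farthest tumors. In all 6 of the 14 neighbours passed by Pearson's r. The relations with neighbours were computed after the values were seen.

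**Figure D5:**
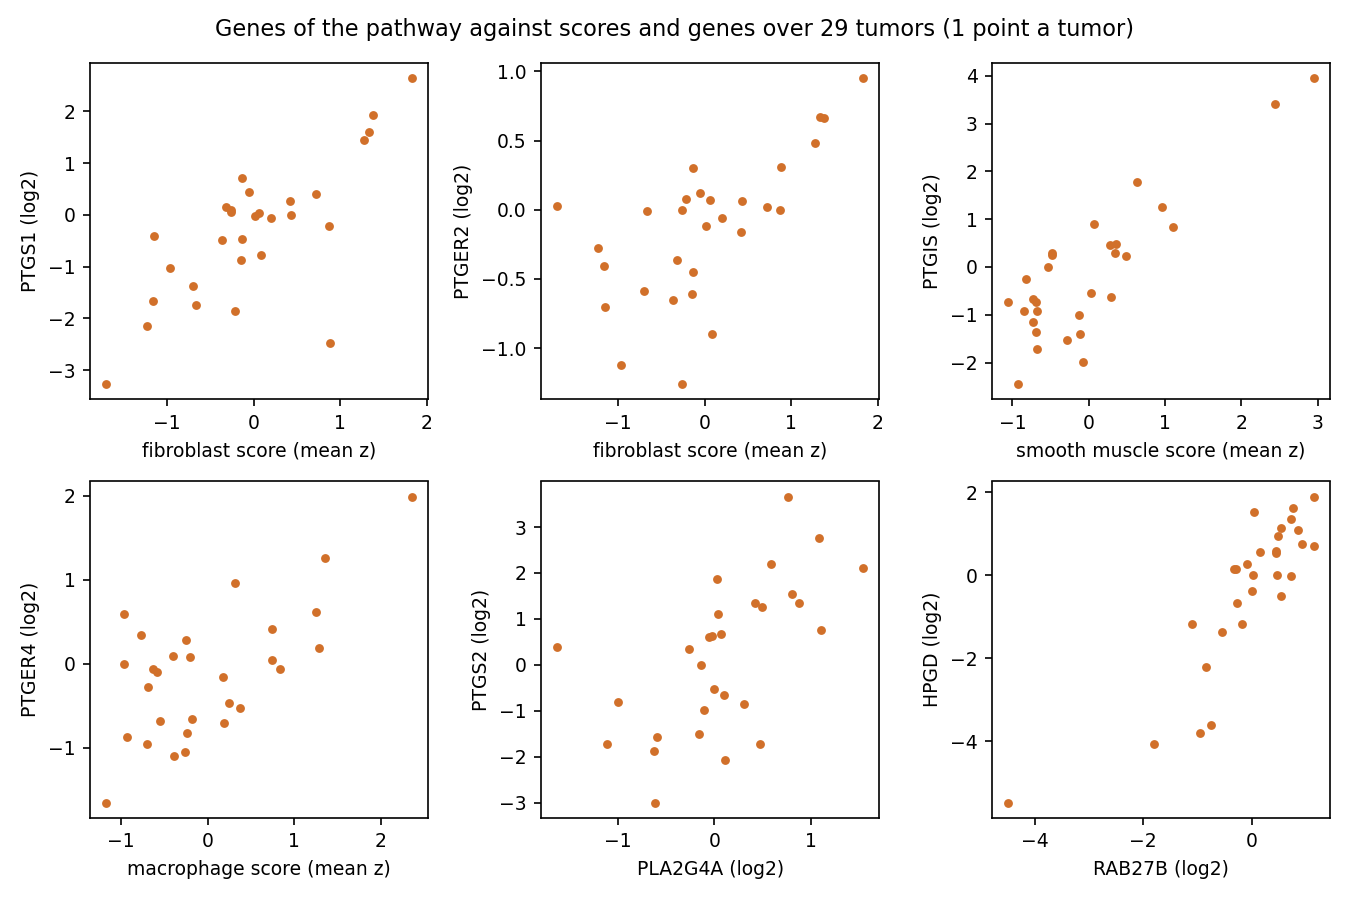
Log2 value of a prostaglandin gene (vertical axes) against the mean z of a marker list or the log2 value of a gene (horizontal axes), 1 point for each of 29 tumors. Pearson's r is 0.746 for PTGS1 and 0.652 for PTGER2 with fibroblast markers, 0.854 for PTGIS with smooth muscle, 0.641 for PTGER4 with macrophages, 0.606 for PTGS2 with PLA2G4A and 0.865 for HPGD with RAB27B.

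The remaining lists gave the following between tumors and normals, where 10.7% of all genes tested were called higher and 45.8% lower. Proliferation genes were higher in tumors in 6 of 6, led by TOP2A (log2 fold change 3.96) and PLK1 (3.08), and of 6 cAMP-induced genes 2 were higher, led by FOSB (2.93), and 2 lower, led by PDE4D (-2.49). Of 9 inflammatory cytokine genes 1 was higher and 1 lower, TNFAIP6 (-5.93), and OSM was at -1.30 (adjusted p = 0.168 by limma). Of 6 hypoxia genes 3 were higher, led by VEGFA (2.75), and 1 lower, CA9 (-2.05), with a median of 0.66. For the myeloid lists the largest changes were 1.95 for CD68 and 0.74 for TYROBP (adjusted p = 0.0966) in macrophages, and 1.96 for S100A8 and 1.82 for S100A12 (adjusted p = 0.0837) in neutrophils. Among T cell markers CD3D was at -1.23 (adjusted p = 0.0922). No endothelial marker was called, the largest being TEK (-0.78, adjusted p = 0.118) and TIE1 (0.74, adjusted p = 0.243), and of the basal and squamous genes PI3 fell (-4.30) and KRT14 was at 1.47 (adjusted p = 0.295).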

How the data were processed

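RNA-seq of 29 canine iUC tumors and 4 normal mucosa samples, run by the authors in 1 batch on an Illumina HiSeq 4000 (paired-end, 150 bases), was used. The authors aligned the reads to CanFam 3.1 with COBWeb in Strand NGS 3.1, and normalized genes in 2 ways (TMM, DESeq). They deposited log2 values, centred for every gene on its median over all samples. The values are not counts, so total counts per sample are not known and no count test was run; the last, incomplete line of each analysed copy was dropped. The lowest shared value of a gene is its lowest value over the samples, where samples share it.

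A gene was tested if above that value in at least 4 samples. Tumors and normals were compared on the whole TMM-normalized table with limma 3.58.1 (R 4.3.3; lmFit, eBayes with trend) with Benjamini-Hochberg adjustment, and called when the change was at least 2-fold with an adjusted p no higher than 0.05. Correlations over the 29 tumors have two-sided permutation p-values from 100000 resamples, adjusted over 28 pairs or 112 relations. In place of PTGER4 minus PTGER3, which was planned, PTGER4 minus PTGER2 was computed. Scripts were tested on simulated data. Python 3.11.15 with numpy 2.4.6, pandas 2.3.3, scipy 1.17.1 and matplotlib 3.10.9 was used.

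The genes and lists were chosen with earlier results of these data known. Named genes are all 9 of the set, other pathway genes past both thresholds (up to 12) and the tested prostanoid genes, the 3 genes most like each (above the lowest value in at least 15 tumors), and 2 genes of each marker list with the largest change; the neighbours, of which PDC is named, were added. The other alternatives were the authors' DESeq-normalized table, limma without trend or with group weights, other filters, no fold threshold, centred samples, and samples left out. No sequence or coordinate is printed. Replicates are separate dogs for tumors, and the tumors' subtypes were not used. A gene that this rule names on a marker list is not reported here.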

Additional observations from a re-analysis of the deposited data

Results flagged for a closer look

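Among 37 genes or differences checked for a normal far from the other 3 (gap over range above Dixon's 95% critical value for 4 samples; chance alone flags about 1 in 20), 3 were found, none of them among the 8 prostaglandin genes of the set. PLA2G5 in normal 2 was 1.51, while the others lay between 0.72 and 0.80 (ratio 0.900). PTGER1 in normal 2 was 0.56, with the others at their lowest shared value of -1.75 (ratio 1.00). LTA4H in normal 4 was -1.32, with the others between -0.98 and -0.92 (ratio 0.844). Every tumor was above every normal for LTA4H, as for 7.63% of all genes tested.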

How the results depend on the processing

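Over 41 settings for each gene, no result reversed, and PTGS2 (log2 fold change 3.09 to 3.50), PTGIS (-5.50 to -4.99), PTGER2 (-1.46 to -1.09) and PTGER4 (-1.60 to -1.18) kept their calls. HPGD stayed uncalled in all of them, from -0.01 to 0.70. Leaving out 1 sample gave PTGS1 -1.80 to -1.40, PTGES 1.37 to 1.57 and PTGES2 0.78 to 1.08, with the lost and gained calls named above. In the DESeq-normalized table PTGES was at 1.18 and lost its call, so that 1 gene of the set was called higher. Without the fold threshold PTGES2 was called at 0.98. Of the other pathway genes, 3 to 5 were called higher and 8 to 11 lower over the settings run for them. With the olfactory receptor share regressed out, 1 pair of genes passed over the tumors. The number of list relations passed was 9 to 13 over the settings, and those of PTGIS with mast cells (0.483 without the 2 farthest tumors) and nerve (rho 0.476, and 0.453 without the 2 farthest) were lost in some, as were those of PTGER4 with macrophages (rho 0.451, and 0.401 without the 2 farthest) and proliferation (rho -0.416). The median over all genes tested was -1.11 in the DESeq-normalized table against -0.84, and over genes whose median lay above the lowest value -0.30 against -0.01. Without tumors 14, 17 and 25 (an alternative chosen after seeing the data), 2 genes of the set were called higher and 4 lower. The causes were not tested. No paired analysis was possible because tumors and normals came from different dogs and the labels tie no tumor to a normal. The 4 normals set the precision of every comparison, and the depth of a sample is not known.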
